A study of Mus musculus with 18 samples.

Results

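The circular RNAs (circRNAs) described here come from 4 genes of HECT ubiquitin ligases, Ube3a, Itch, Nedd4 and Nedd4l. A circRNA is a closed RNA made when the end of an exon is joined back to the start of the same or an earlier exon, and a read across that joint, a back-splice read, is what was counted. Members were the deposited circRNAs with ends at exon ends of, or inside, these genes on GRCm38, which gave 4 of 474, 1 from each gene. The 4 genes were picked by name and not by a measured difference. The choice was made with earlier results of these data known, and Ube3a was already known to give the most abundant circRNA of the table.

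Whole liver of 18 male C57BL/6 mice was sequenced, 6 in each of 3 groups, with 1 mouse per library. Mice were bought at 6 weeks of age. All groups had intraperitoneal injections of 10 µl per g 2 times a week, and the livers were collected after 12 weeks. Control mice were given corn oil, with double distilled water by mouth each day. Cirrhosis mice were given carbon tetrachloride (CCl4), which injures hepatocytes, as a 10% mixture in the oil, with the same water. Cirrhosis-PTH mice were given the 10% CCl4 mixture and, by mouth, 0.25 mg per g a day of PTH (Pien Tze Huang), a traditional medicine. The labels describe 45 treated mice, of which the 18 were sequenced.

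Ubiquitin is passed from an activating enzyme to a conjugating enzyme and then, with the help of a ligase, to a protein that is often marked for degradation. HECT ligases differ from most others in that they carry ubiquitin on a cysteine of their own HECT domain, at the C-terminal end of the protein, before handing it on. Ube3a encodes E6AP, which is imprinted in neurons and is lost in Angelman syndrome. Itch, Nedd4 and Nedd4l belong to the NEDD4 family, whose members have a C2 domain, several WW domains that bind proline-rich motifs of their substrates, and the HECT domain. ITCH restrains T cells and targets JunB. NEDD4 acts on growth factor receptors and other membrane proteins, and NEDD4L is known for the removal of the epithelial sodium channel from the cell surface and for limiting SMAD signalling.

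Both ends of every member lay at exon ends of its host in the GENCODE M21 annotation. The Ube3a circRNA (chr7:59240967-59247217, plus strand) joins the end of exon 4 to the start of exon 2 of a transcript of 13 exons, and its 3 exons add up to 232 bases, 167 of them 5' UTR and 65 coding. That of Itch (chr2:155157774-155163483, plus strand) holds exons 3 to 4 of 26, 293 bases, with 223 of 5' UTR and 70 coding. The Nedd4 circRNA (chr9:72725017-72726530, plus strand) holds exons 13 to 14 of 29, and all of its 186 bases are coding.

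The back-splice junctions of these 3 are shown because they are what tells these circRNAs from the linear RNAs of the same genes. Lower-case letters are the last 15 bases of the last exon, and capitals are the first 15 bases of the first exon, 5' to 3' as DNA, read from the GENCODE M21 transcripts.
Ube3a, exon 4 to exon 2: tgaagctagccgaatGTTAAAAAATCTCTC
Itch, exon 4 to exon 3: aacttcagatcactgGTCTGCTGTAACAGT
Nedd4, exon 14 to exon 13: aagcccaccatgcagAATCATTCCAGCAGA

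With all exons between the ends kept in the 1 transcript chosen for each host, the circRNAs of Ube3a and Itch hold the annotated start codon. So did, on the same terms, 56 (12.9%) of the 435 circRNAs that could be placed in 1 transcript. Both ends occurred in 5 annotated transcripts of Ube3a and 2 of Itch. Start codons of transcripts other than the chosen one were not examined. The start codons, in capitals below, lie in exon 3 of Ube3a and exon 4 of Itch.
Ube3a, start codon: ccctgatgtcaccgaATGgccacagcttgt
Itch, start codon: tgtcttattgatggtATGtctgacagtgga

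The Nedd4l circRNA (chr18:65074724-65080071, plus strand) holds exons 3 to 5 of 31, and all of its 175 bases are coding. The coding part of all 4 was a small piece of the coding sequence of the chosen host transcript, ahead of its C-terminal end where the HECT domain lies. That of Ube3a covered the first 2.49% of the coding sequence, that of Itch the first 2.70%, that of Nedd4l the stretch from 4.17% to 10.1%, and that of Nedd4 the stretch from 42.5% to 49.5%. The length divides by 3 for Nedd4 alone among the 4, and for 34.7% of the 435 placed circRNAs. The lengths of all 4 lay below the median of 306 bases, with Nedd4l longer than 4.60% and Nedd4 longer than 7.59% of them. The introns beside the circRNA were long for Nedd4l, at 77302 bases upstream and 63724 downstream, against medians of 11779 and 10469 over the placed circRNAs. They measured 11695 and 24729 bases for Ube3a, 19501 and 5200 for Itch, and 3355 and 4371 for Nedd4, so long flanking introns were not common to the 4.

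**Figure D1:**
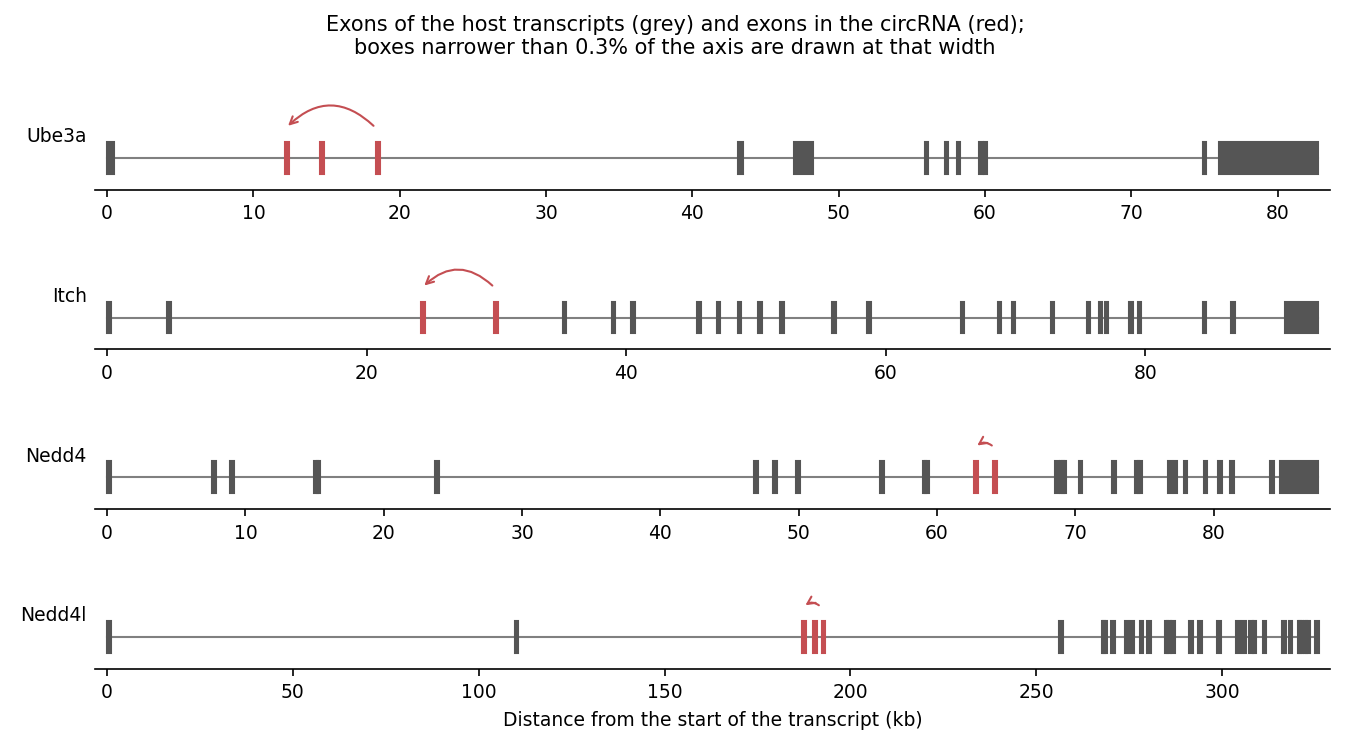
Exons of the host transcripts of Ube3a, Itch, Nedd4 and Nedd4l against the distance from the transcript start in kb, each on its own scale. Red boxes are the annotated exons from end to end of the circRNA. Arrows run from the end of the last to the start of the first. The circRNAs of Ube3a, Itch and Nedd4l come from early exons and that of Nedd4 from exons 13 to 14 of 29.

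Stretches of 25 bases, taken every 5 bases of the spliced circRNA, were sought in the annotated transcripts of all other genes. They ran from the first exon to the last and did not cross the back-splice junction. The search thus does not show whether the counted junction itself is unique. On the same strand 0 of 42 of Ube3a, 0 of 54 of Itch, 0 of 33 of Nedd4 and 0 of 31 of Nedd4l were found. On the opposite strand, 33 of the 42 of Ube3a occurred in 9330162G02Rik, a gene annotated antisense across this part of Ube3a. The deposited table gives no strand, so the Ube3a assignment rests on its ends lying at Ube3a exon ends, and reads from an RNA of the opposite strand cannot be told apart from the counts.

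Values are CPM, back-splice reads scaled to a library total that no label or file header names. They were whole multiples of 1 read, which gave 2706146 to 29164326 reads as the total behind the CPM and 794 to 8431 back-splice reads over all listed circRNAs per library. The summed CPM of the listed circRNAs ran from 99.5 to 435. A count of 0 allows up to 3 reads, which is 0.103 to 1.11 CPM depending on the library, and such floors and all intervals from reads cover counting error only. As whole liver was sequenced, fewer cells of a type and less circRNA per cell cannot be told apart. Of the 16 hepatocyte marker genes in the list used, 1 (Egfr) hosted a listed circRNA. Outside that list, and picked after the table was seen, hosts known as hepatocyte genes included Uox, Abcb11 and Cyp1a2, with mean CPM of 0.573, 0.450 and 0.328. Of 10 macrophage and Kupffer cell markers 2 did (Adgre1 and Mertk, 3 circRNAs), and their sum ran from 0 to 1.02 CPM over Control libraries, from 0.184 to 6.76 over Cirrhosis and from 0.149 to 1.19 over Cirrhosis-PTH. Of 8 lymphocyte markers 1 did (Ikzf1), and of the 11 stellate, 8 endothelial, 5 cholangiocyte and 4 erythroid markers 0 did. Whether those cells had a part in the values below was not tested.

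The 4 circRNAs differed widely in level. Over the 18 libraries the Ube3a circRNA had a mean of 6.73 ± 3.30 CPM (SD) from 1032 reads, that of Nedd4l 1.23 ± 1.42 from 167, that of Itch 0.370 ± 0.540 from 49, and that of Nedd4 0.333 ± 0.339 from 41. By mean CPM they ranked 1, 49, 243 and 272 of 474, and the median circRNA stood at 0.375 CPM. Since each value counts 1 junction, these levels do not scale with length. Ube3a was above each of the other 3 in 18 of 18 libraries. Nedd4l was above Itch in 13 libraries with 3 equal, and above Nedd4 in 14 with 1 equal. Itch and Nedd4 were not told apart, each being higher in 7 libraries with 4 equal.

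**Figure D2:**
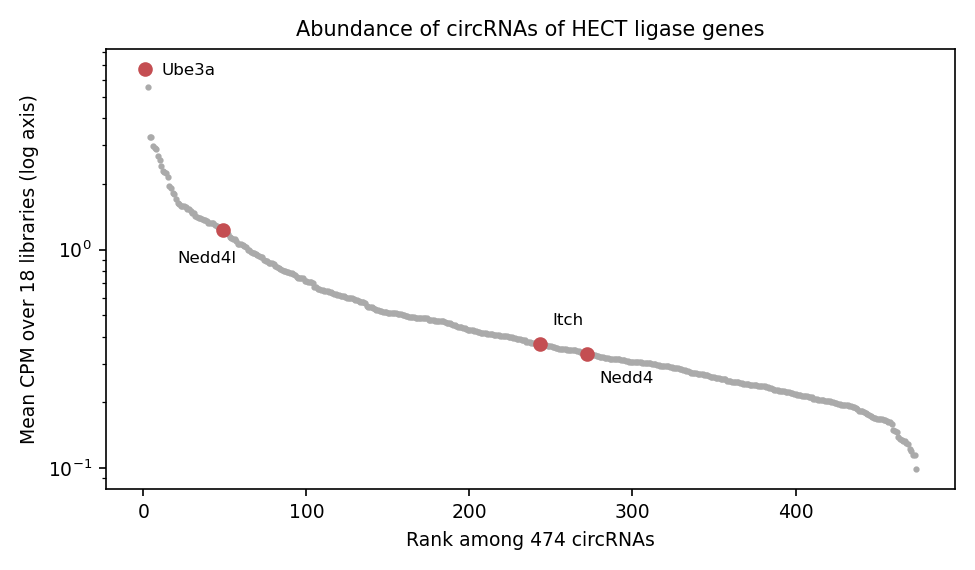
Mean CPM over 18 libraries (log axis) against rank for the 474 listed circRNAs (grey), with Ube3a, Nedd4l, Itch and Nedd4 in red. Ube3a stands at rank 1 with 6.73 CPM, while Itch and Nedd4 lie near the median of 0.375 CPM.

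Ube3a was the best measured of the 4. Its circRNA was detected in all 18 libraries, with 10 or more reads in 17 and at most 323 reads in 1 library. It was the highest listed circRNA in 7 libraries and tied for highest in 1 more, and was among the first 3 in 15. Its lowest rank was 19, in Control 6. The circRNA next in mean level, from Rmdn2, had 6.70 CPM, so the lead of Ube3a was far smaller than its spread between libraries.

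In Control the Ube3a circRNA stood at 7.76, 8.58, 8.50, 1.73, 2.45 and 3.65 CPM (mice 1, 2, 3, 6, 7 and 8), in Cirrhosis at 7.10, 4.35, 5.05, 7.25, 6.03 and 10.9, and in Cirrhosis-PTH at 9.99, 13.0, 3.34, 2.68, 7.78 and 11.1 (mice 1 to 6 in both). The group ranges overlapped throughout, and the Control values fell into 3 high and 3 low. The means were 5.44 ± 3.18, 6.78 ± 2.31 and 7.98 ± 4.2 CPM (SD, n = 6 each). The spread within groups was larger than counting error, with a chi-square per degree of freedom of 12.1, 5.29 and 23.3, where counting error alone gives about 1.

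Setting Cirrhosis against Control asks for the change under CCl4, Cirrhosis-PTH against Cirrhosis for that under PTH in mice given CCl4, and Cirrhosis-PTH against Control for that under both. Differences were fitted with limma, a linear model that pools the spread over circRNAs, on log2(CPM + 0.143), a scale that understates changes of low circRNAs, and p values were adjusted over all 474. The 3 comparisons share groups, so their values are not independent of each other. No member passed an adjusted p of 0.05 in any comparison, and limma called 0 of the 474 (0%) in each. At an unadjusted p under 0.05 limma had 58 circRNAs (12.2%) for Cirrhosis against Control (8.86% higher, 3.38% lower), 34 (7.17%) for Cirrhosis-PTH against Cirrhosis (1.69% higher, 5.49% lower) and 25 (5.27%) for Cirrhosis-PTH against Control (1.48% higher, 3.8% lower), with 0 of the 4 members in each.

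On the recovered reads edgeR called 0, 1 (0.211%) and 0 circRNAs in the 3 comparisons, with 8.23%, 6.33% and 3.8% at an unadjusted p under 0.05. DESeq2 called 1 (0.211%), 1 (0.211%) and 0, with 8.02%, 7.81% and 5.91% unadjusted. None of the called circRNAs was a member. Groups that did not overlap were found for 0 of the 4 members in each comparison, and for 0.211%, 0.422% and 0.422% of all 474.

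For the Ube3a circRNA the fitted log2 difference was 0.49 (95% interval -0.27 to 1.26) for Cirrhosis against Control, with limma's adjusted p = 0.671. It was 0.08 (-0.69 to 0.84) for Cirrhosis-PTH against Cirrhosis (limma adjusted p = 0.937) and 0.57 (-0.20 to 1.34) for Cirrhosis-PTH against Control (limma adjusted p = 0.876). Without Control 6, the lowest library, the differences from Control were 0.23 for Cirrhosis and 0.30 for Cirrhosis-PTH. In each comparison 4 of 6 libraries of the first group lay above the mean of the second. These intervals still hold a change of either sign, so they do not show that the groups were alike.

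Libraries differed in the summed CPM of all listed circRNAs, and the one with the lowest sum (99.5, Cirrhosis-PTH 4) had the lowest Ube3a value of its group, 2.68 CPM. Control mice 1, 2 and 3, with the high Ube3a values, had sums of 293, 413 and 273. Control mice 6, 7 and 8, with the low ones, had lower sums of 240, 171 and 163. Other libraries did not follow this order. The highest sum, 435 in Cirrhosis 5, went with 6.03 CPM of Ube3a, below the Cirrhosis mean of 6.78. The highest Ube3a value, 13.0 CPM in Cirrhosis-PTH 2, went with a sum of 305. Whether the sums had a part in the Ube3a values was not tested. As a share of the listed back-splice reads, which does not depend on the CPM scaling, Ube3a took 2.64%, 2.08%, 3.11%, 0.718%, 1.43% and 2.24% in Control and 2.42%, 2.1%, 2.18%, 1.88%, 1.38% and 2.66% in Cirrhosis. In Cirrhosis-PTH it took 3.02%, 4.25%, 1.82%, 2.70%, 2.85% and 3.83%. Here 5 of 6 Cirrhosis-PTH libraries lay above every Cirrhosis library and 2 of 6 above every Control library, and Cirrhosis-PTH 3 was the low one. The mean shares were 2.04 ± 0.858%, 2.1 ± 0.443% and 3.08 ± 0.864%. Refitted on values scaled to the listed sum, the log2 difference of Cirrhosis-PTH was 0.52 (0.0038 to 1.03) against Cirrhosis, with unadjusted p = 0.0483 and adjusted p = 0.591 in limma. Against Control it was 0.67 (0.16 to 1.18), with unadjusted p = 0.0105 and adjusted p = 0.417 in limma. Neither passed the correction. With this scaling the smallest adjusted limma p of any listed circRNA was 0.0863 against Cirrhosis and 0.253 against Control. Other circRNAs thus ranked ahead of Ube3a in both. With this scaling Itch stood at 1.39 against Cirrhosis (limma unadjusted p = 0.0442, adjusted p = 0.566). The circRNAs nearest to Ube3a in profile, named below, stood at 0.51 (Gramd1c), 0.02 (Esco1), 0.34 (Cdk17), 0.44 (Alg12) and -0.29 (Med13l). The value of Gramd1c was thus close to the 0.52 of Ube3a, with limma unadjusted p = 0.0720. How many other circRNAs had an unadjusted p under 0.05 with this scaling, or a like order of libraries by share, was not counted. These values therefore do not show whether Ube3a stands out from the listed circRNAs.

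**Figure D3:**
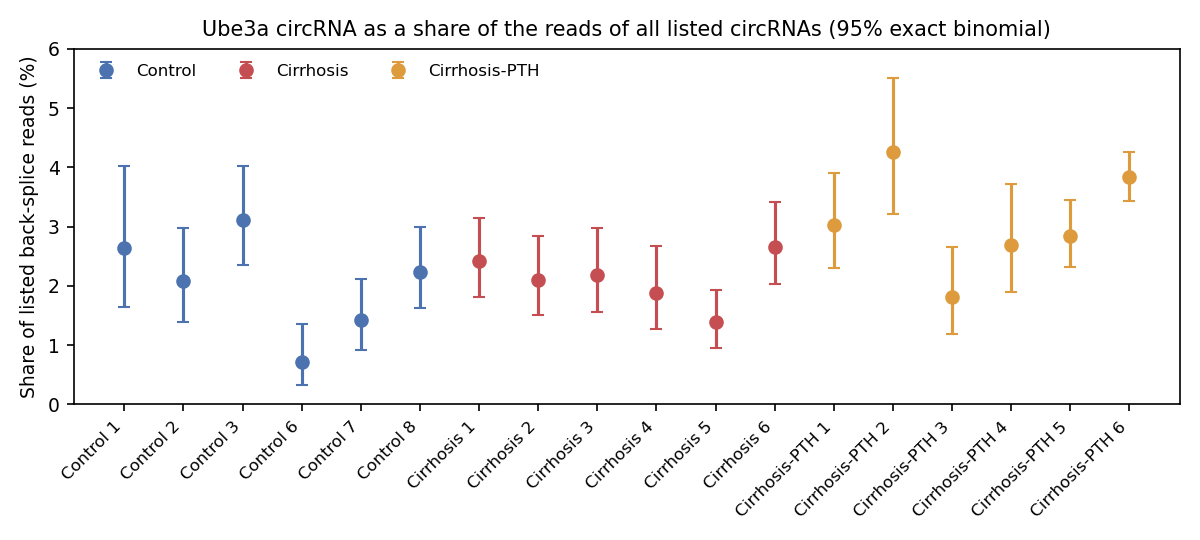
Share of the back-splice reads of all listed circRNAs that belonged to the Ube3a circRNA (%), 1 point per library, bars showing 95% exact binomial intervals (counting error only). Shares ran from 0.718% to 3.11% in Control, 1.38% to 2.66% in Cirrhosis and 1.82% to 4.25% in Cirrhosis-PTH.

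Nedd4l was detected in 16 of 18 libraries. Its circRNA stood at 0, 0.592, 1.67, 0.384, 1.12 and 0.425 CPM in Control, at 0.536, 1.06, 0, 6.28, 0.730 and 1.84 in Cirrhosis, and at 2.45, 1.42, 0.642, 0.447, 1.35 and 1.17 in Cirrhosis-PTH, in the order of mice given above. Cirrhosis 4 stood far above all others, with 26 reads, and the groups otherwise overlapped. Means were 0.698 ± 0.599, 1.74 ± 2.31 and 1.25 ± 0.708 CPM (SD, n = 6 each), and the Cirrhosis mean was 0.834 without Cirrhosis 4.

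The log2 difference of the Nedd4l circRNA was 0.70 (-0.66 to 2.06) for Cirrhosis against Control (limma adjusted p = 0.772), and ran from 0.17 (without Cirrhosis 4) to 1.27 (without Cirrhosis 3) with 1 library left out. It was 0.95 (-0.42 to 2.31) for Cirrhosis-PTH against Control (limma adjusted p = 0.876), with 4 of 6 libraries above the Control mean, and 0.51 without Control 1, which had 0 reads. For Cirrhosis-PTH against Cirrhosis it was 0.25 (-1.11 to 1.61; limma adjusted p = 0.937), although the mean CPM was lower in Cirrhosis-PTH and 5 of 6 libraries lay below the Cirrhosis mean. Without Cirrhosis 4 this difference was 0.77, and without Cirrhosis 3, which had 0 reads, it was -0.33. The sign between the CCl4 groups thus turned without Cirrhosis 3. With all libraries kept it also turned in edgeR, in DESeq2 and with a pseudocount of 1 CPM.

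Itch was detected in 10 of 18 libraries, with at most 10 reads in any. Its circRNA stood at 0, 1.78, 0, 0, 0.306 and 0.340 CPM in Control, at 0, 0.212, 0, 0, 0.730 and 0 in Cirrhosis, and at 0.526, 1.65, 0, 0.224, 0.556 and 0.343 in Cirrhosis-PTH. It was above 0 in 3, 2 and 5 libraries of the 3 groups, from 13, 6 and 30 reads, and the values overlapped. Pooled over each group these reads gave 0.329 CPM (95% exact Poisson interval 0.175 to 0.563) in Control, 0.151 (0.0555 to 0.329) in Cirrhosis and 0.412 (0.278 to 0.587) in Cirrhosis-PTH. The Cirrhosis-PTH 6 library, with 10 of the 30 reads, is also the deepest.

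Mean CPM of Itch was 0.404 ± 0.691, 0.157 ± 0.293 and 0.550 ± 0.578 (SD, n = 6 each), and leaving out the highest library lowered each by over 1.5 times. It was 0.129 in Control without Control 2, 0.0424 in Cirrhosis without Cirrhosis 5 and 0.330 in Cirrhosis-PTH without Cirrhosis-PTH 2. The log2 difference of Cirrhosis-PTH against Cirrhosis, 1.23 (-0.14 to 2.60), was the largest in size among the members in the limma fit, with unadjusted p = 0.0791 and adjusted p = 0.633, and 5 of 6 libraries lay above the Cirrhosis mean. It was -0.54 (-1.91 to 0.83) for Cirrhosis against Control (limma adjusted p = 0.814), -0.03 without Control 2 and -0.93 without Cirrhosis 5. For Cirrhosis-PTH against Control it was 0.69 (-0.68 to 2.06; limma adjusted p = 0.876), and ran from 0.34 (without Cirrhosis-PTH 2) to 1.20 (without Control 2) with 1 library left out.

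Nedd4 was detected in 13 of 18 libraries, with at most 7 reads in any. Its circRNA stood at 0.370, 0.888, 0.303, 0.767, 0.306 and 0 CPM in Control, at 0.402, 0.212, 0, 0.242, 0.365 and 0 in Cirrhosis, and at 1.23, 0, 0.514, 0, 0.159 and 0.240 in Cirrhosis-PTH. The 6 Cirrhosis libraries lay below the Control mean, while 2 Control libraries lay above every Cirrhosis library. Means were 0.439 ± 0.330, 0.204 ± 0.173 and 0.356 ± 0.467 CPM (SD, n = 6 each), and the last was 0.182 without Cirrhosis-PTH 1.

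The reads of Nedd4 were 13, 8 and 20, so the 0.202 CPM of the pooled Cirrhosis reads (95% exact Poisson interval 0.0871 to 0.397) and the 0.329 of Control (0.175 to 0.563) could not be told apart at this depth. The chi-square per degree of freedom was 0.980 in Cirrhosis, against 2.03 in Control and 5.21 in Cirrhosis-PTH, so only in Cirrhosis was the spread between libraries near that of counting, which is all these intervals cover. The log2 differences were -0.69 (-2.11 to 0.72) for Cirrhosis against Control, 0.24 (-1.17 to 1.66) for Cirrhosis-PTH against Cirrhosis and -0.45 (-1.86 to 0.96) for Cirrhosis-PTH against Control. Limma's adjusted p values were 0.790, 0.937 and 0.954. With 1 library left out these ran from -1.05 to -0.48, from -0.14 to 0.51 and from -0.84 to -0.18.

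**Figure D4:**
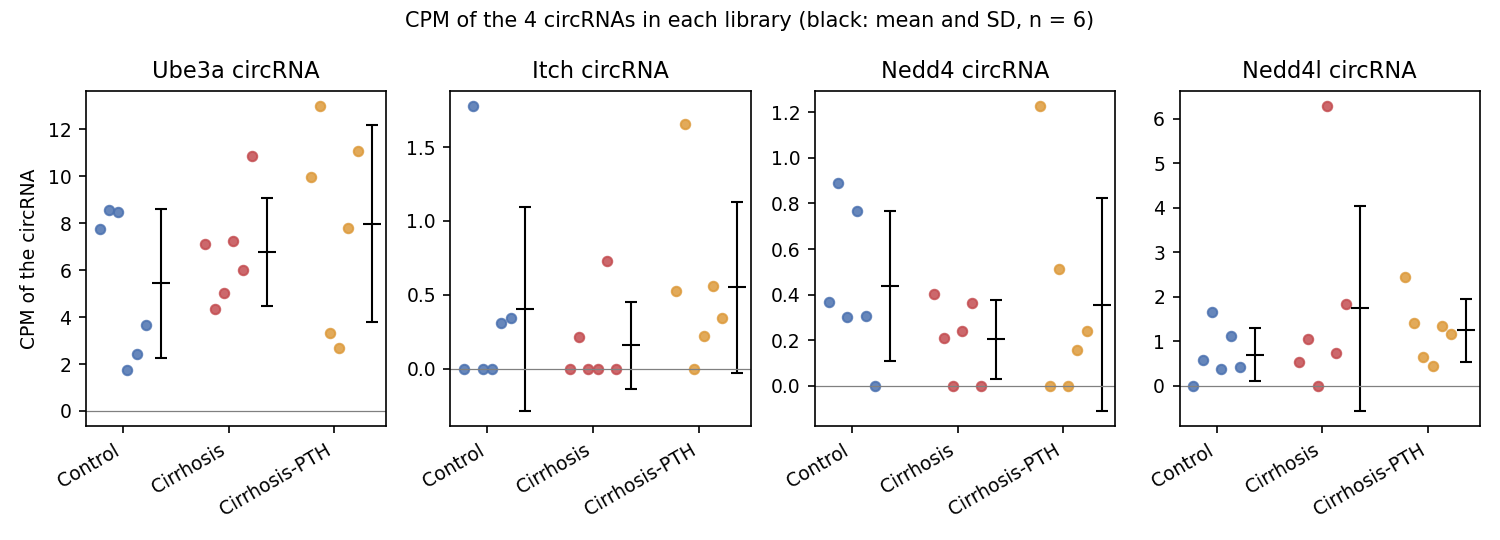
CPM of the Ube3a, Itch, Nedd4 and Nedd4l circRNAs in each library by group, each panel on its own scale, with the mean and SD of 6 libraries in black. Groups overlap in every panel, and Cirrhosis 4 (6.28 CPM) sets the Cirrhosis mean of Nedd4l.

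Side by side, 2 of the 4 members had a fitted difference above 0 in Cirrhosis against Control, 4 of 4 in Cirrhosis-PTH against Cirrhosis and 3 of 4 in Cirrhosis-PTH against Control, where 56.1%, 42% and 49.8% of all 474 did. In Cirrhosis-PTH against Cirrhosis the sign of Nedd4l was negative in edgeR, in DESeq2 and with a pseudocount of 1 CPM. In Cirrhosis against Control that of Ube3a turned negative in DESeq2 (-0.14) and when libraries were centred on the median of the 26 circRNAs found in all 18 (-0.08). That centring moved the median of all 474 from 0.12 to -0.46 in Cirrhosis against Control and from -0.17 to 0.34 in Cirrhosis-PTH against Cirrhosis. The median of the 4 members stood at -0.02, 0.25 and 0.63 in the 3 comparisons, beside 0.12, -0.17 and -0.01 for all circRNAs. With centring, the Cirrhosis-PTH against Cirrhosis difference was 0.59 for Ube3a (limma unadjusted p = 0.0335, adjusted p = 0.389). For Itch it was 1.74 (limma unadjusted p = 0.0138, adjusted p = 0.358). Neither passed. This centring also put 63.9% of all 474 above 0 in this comparison, beside 42% without it. How many of the 474 had an unadjusted p under 0.05 after centring was not counted. The 2 p values thus do not show whether Ube3a and Itch stand out.

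**Figure D5:**
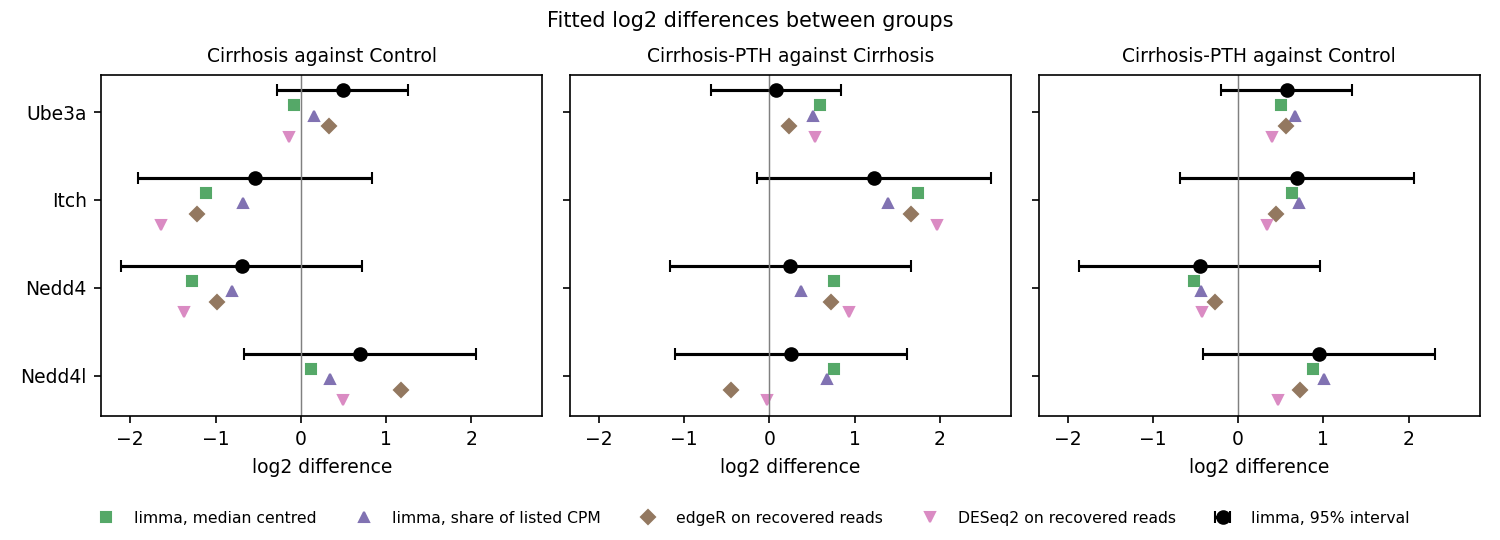
Fitted log2 differences of the 4 circRNAs in the 3 comparisons, with limma's 95% intervals on log2(CPM + 0.143) in black and the estimates of limma with median centring, limma on the share of listed CPM, edgeR and DESeq2 in colour. All black intervals cross 0, the largest difference in size being that of Itch in Cirrhosis-PTH against Cirrhosis (1.23).

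Of 35 activating and conjugating enzyme genes 1, Ube2g2, hosted a listed circRNA (chr10:77630726-77630894). UBE2G2 passes ubiquitin to ligases of the endoplasmic reticulum. Its circRNA also overlaps Gm49325, annotated on the same strand, so its assignment is uncertain. It had 1.85 ± 0.816, 0.431 ± 0.468 and 0.887 ± 0.546 CPM in the 3 groups (0.262 in Cirrhosis without Cirrhosis 5). The log2 difference of Cirrhosis against Control was -2.14 (-3.51 to -0.76), and 0 of 1 passed in limma (adjusted p = 0.157) or in edgeR (adjusted p = 0.436), while DESeq2 (adjusted p = 0.0249) and limma with median centring (adjusted p = 0.0272) called it. None of 19 adaptors and inhibitors of NEDD4-family ligases hosted one.

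Of 33 substrate genes 4 did, and 0 of 4 passed in any comparison. The circRNA of the TGF-beta mediator gene Smad4 had 0.433 ± 0.408, 0.304 ± 0.369 and 0.487 ± 0.234 CPM in Control, Cirrhosis and Cirrhosis-PTH, the first being 0.282 without Control 2. That of the growth factor receptor gene Egfr had 1.52 ± 1.65, 1.23 ± 0.818 and 1.34 ± 0.868. That of the insulin receptor gene Insr had a mean of 0.273 CPM over all libraries. The fitted difference was above 0 for 2, 2 and 3 of the 4 in the 3 comparisons.

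The circRNAs whose profile over the 18 libraries lay nearest to that of Ube3a were sought among the 25 others found in every library, by the root mean square difference of log2 values centred per circRNA. They came from Gramd1c (0.602), Esco1 (0.659), Cdk17 (0.679), Alg12 (0.708) and Med13l (0.746), against a median of 0.951 over the 25. All profiles share each library's CPM scale, so part of this likeness is common to them. Gramd1c, a sterol transfer protein gene, had a mean of 5.56 CPM over the 18 libraries.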

How the data were processed

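The deposited values are CPM of back-splice reads per circRNA and library, made by the authors. Per the file headers the caller was CIRI; no version of it is named. The submitters' processing notes name cutadapt 4.2, Trim Galore, HISAT2 2.2.1, Bowtie2, Bowtie 1.3.1, StringTie 2.1.5 and GRCm38, with no role for each. Libraries were made from total RNA after removal of ribosomal RNA, per the labels' protocols, which name no digestion of linear RNA. No listed circRNA was above 0 in fewer than 9 libraries.

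Groups and mouse numbers came from the sample titles. Of 5886 values above 0, 100% were whole reads within 0.01. Ends were matched to GENCODE M21 exons, positions being 1-based. The test was limma 3.58.1 in R 4.3.3 (trend option, all 18 libraries, circRNAs above 0 in at least 6 libraries), 2-sided, on log2(CPM + 0.143), with the median of the libraries' smallest nonzero CPM as pseudocount. Adjustment was by Benjamini-Hochberg over 474. On the recovered reads edgeR 4.0.16 (library sizes as recovered from the CPM) and DESeq2 1.42.0 were run. The limma and edgeR fits were also run on simulated reads with known changes and 1 setting of the spread for all circRNAs. The outcome is not given here, so that run does not show how well changes of the members could be found. Python 3.11.15, SciPy 1.17.1 and matplotlib 3.10.9 were used for the rest. Other settings are given in the closing section. Named were all member circRNAs, up to 3 of highest mean in each pathway list, and the 5 nearest to Ube3a in profile. Insr is given by its mean outside that rule. Some circRNAs the rule names are not reported here. Members and lists were chosen with earlier results of these data known.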

Additional observations from a re-analysis of the deposited data

Results flagged for a closer look

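In groups of 6, a library whose gap to its nearest neighbour exceeded 0.625 of the group's range (Dixon's 95% value) was singled out. Over 15 circRNAs and 3 groups, 10 of 45 sets had such a library. Chance gives about 1 in 20 for independent normal values, which these low counts with zeros from shared libraries are not, so the number is a description.

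Among the members, Nedd4l stood at 6.28 CPM in Cirrhosis 4, from 26 reads, with the next Cirrhosis library at 1.84. Itch had 1 such library in each group: Control 2 at 1.78 CPM from 6 reads, Cirrhosis 5 at 0.730 from 4 reads and Cirrhosis-PTH 2 at 1.65 from 7 reads.

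Among the other circRNAs, Cirrhosis-PTH 2 stood apart for Smad4 (0.944 CPM), Cdk17 (5.19 CPM) and Med13l (4.01 CPM). Cirrhosis 4 stood apart for Med13l too (5.32 CPM), Cirrhosis 6 for Esco1 (6.09 CPM) and Control 2 for Alg12 (7.10 CPM).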

How the results depend on the processing

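No member passed the threshold under any alternative, the smallest adjusted p of a member being 0.358, and of 273 recomputed member differences 262 kept their sign and 11 changed it. The 11 alternatives besides leaving out a library were other pseudocounts (0.0714, 0.571 and 1 CPM), no filter, a filter of above 0 in 12 libraries (which removes Itch), median centring, scaling to the listed sum, edgeR, DESeq2, only the 2 groups compared, and the replicate block. By construction, no filter, the filter of 12 libraries and the fit on 2 groups left the fitted difference of each kept circRNA unchanged. The replicate block did so too for Cirrhosis-PTH against Cirrhosis. The count of 262 thus includes differences that could not change. The Ube3a difference of Cirrhosis against Control reversed with median centring (-0.085) and in DESeq2 (-0.14). That of Nedd4l between Cirrhosis-PTH and Cirrhosis reversed with a pseudocount of 1 CPM (-0.028), in edgeR (-0.45) and in DESeq2 (-0.028). The cause was not tested. With 1 library left out, the Cirrhosis-PTH against Cirrhosis differences ran from -0.11 to 0.34 for Ube3a, -0.14 to 0.51 for Nedd4 and -0.33 to 0.77 for Nedd4l, and changed sign 6 times in all (Ube3a without Cirrhosis 2 or Cirrhosis-PTH 1, 2 or 6, Nedd4 without Cirrhosis-PTH 1, Nedd4l without Cirrhosis 3). Calls over all 474, 0 in each main comparison, became 2 with median centring and 1 in DESeq2 for Cirrhosis against Control, and 1 in edgeR and 1 in DESeq2 for Cirrhosis-PTH against Cirrhosis. They ran from 0 to 1 in both with 1 library left out, being 1 without Control 3 in the first and without Cirrhosis 1, 2 or 3 in the second.

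Equal mouse numbers gave little sign of pairing: correlations of their deviations from the group means ran from -0.0572 to 0.0817. In Cirrhosis against Control the library of equal number correlated highest for numbers 1, 3 and 6 but not 2. This held for number 4 alone in Cirrhosis-PTH against Cirrhosis, and for no number in Cirrhosis-PTH against Control. With the number as replicate block, 0 members and 0 of all circRNAs were called in each comparison, and on the 4 shared numbers the differences of Cirrhosis against Control were 0.19 for Ube3a, -1.44 for Nedd4, -0.61 for Itch and 0.30 for Nedd4l. Those of Cirrhosis-PTH against Control were 0.56, -0.53, 0.97 and 1.34, and those of Cirrhosis-PTH against Cirrhosis, with all numbers shared, were as without the block. The planned test of a host's share in its most abundant circRNA was not run, since each host had 1. The median SE of 0.694 limits what could be called, and for Itch and Nedd4 the limit was 41 to 49 reads in all.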
